A study of Mus musculus with 19 samples.

Results

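The comparison described here is that of Asxl1-mutant (MT) with wild-type (WT) myeloid cells of old mice. Its members are all 6 libraries of bone-marrow cells sorted for CD11b at 18 months of age, 3 MT and 3 WT, of 19 libraries in the series, and each library has a table of gene counts and a table of transposable element (TE) counts. The other libraries were 7 of the same cells at 4 months (young; 3 MT and 4 WT) and 6 of LK cells at 18 months (3 and 3), the lineage-negative, Kit-positive progenitor fraction. The study asked what mutant ASXL1 protein does in clonal hematopoiesis and chronic myelomonocytic leukemia, with heterochromatin in view. The labels give MT and WT as the genotypes and do not name the mutation, its promoter or Cre, the strain, the sex or a batch, and both groups are otherwise described alike.

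ASXL1 is a chromatin protein that binds the deubiquitinase BAP1, which removes ubiquitin from histone H2A. Truncated forms of ASXL1 are frequent in the expanded blood clones of older people. CD11b, encoded by Itgam, is an integrin chain carried by neutrophils, monocytes and related cells, and in marrow most cells sorted for it are neutrophils and their precursors. Heterochromatin is packed chromatin marked by methylated histone H3 lysine 9 that keeps many repeats silent, which is why TE transcripts were counted beside genes.

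The libraries looked like myeloid cells. S100a9, a subunit of the neutrophil protein calprotectin, had the most counts in all 6. Itgam was at 2589, 2774 and 2783 CPM (gene counts scaled to a common library size) in MT and at 2820, 2675 and 2692 CPM in WT, with overlapping groups (edgeR adjusted p 0.953). Gene counts ran from 41909460 to 68260809 per library and TE counts from 1400436 to 2305226. Asxl1 itself (mm10 chr2:153345829-153404007, plus strand) was at 234, 233 and 241 CPM in MT and 249, 228 and 235 CPM in WT, a log2 fold change of -0.01 ± 0.04 (SE; edgeR adjusted p 0.939). Counts per gene hold transcripts of both alleles together, so the level of Asxl1 does not check the labels.

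Replicates 2 and 3 of each group were closer to each other than to replicate 1. The chi-square statistic of their counts per degree of freedom was 6.68 in MT and 4.84 in WT, against 17.3 and 14.4 for the MT pairs with replicate 1 and 41.7 and 47.6 for the WT pairs. All pairs differed by more than counting noise, so none was merged, and the labels do not say whether replicates are separate animals. The p-values therefore measure the spread between these libraries, which may be in part technical, and the counts of called genes and TE subfamilies are also given with replicates 2 and 3 summed to 1 sample.

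Few genes were called by edgeR between old MT and old WT cells, although 2230 had an edgeR unadjusted p under 0.05. Of 13398 genes tested with edgeR's quasi-likelihood test, 17 were higher in MT (0.127%) and 28 lower (0.209%) at a Benjamini-Hochberg adjusted p under 0.05, the threshold for a call throughout. The changes were small: 7 of the 45 reached 2-fold and the median size was 0.51 on the log2 scale. In all 45 the 3 MT libraries lay wholly above or below the 3 WT libraries, a pattern that 11.2% of all genes tested showed with MT higher and 11.7% with MT lower. With replicates 2 and 3 summed, 0 of the 45 were still called, although all 45 kept their direction and an unadjusted p under 0.05. Genes without overlap in the same libraries could hardly change direction. Without MT replicate 2 or MT replicate 3 edgeR called 0 genes (1209 and 1278 genes at an unadjusted p under 0.05), without WT replicate 2 or WT replicate 3 it called 4 each, without MT replicate 1 it called 310 and without WT replicate 1 it called 1819.

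Of the genes higher in MT that are named here, Foxq1 and Tgif2 had the highest log2 fold changes. Foxq1, a forkhead factor, was at 2.46, 3.43 and 3.82 CPM in MT and 1.29, 1.26 and 1.08 CPM in WT, a log2 fold change of 1.42 ± 0.19 (SE; edgeR adjusted p 0.0282). Tgif2, a homeodomain repressor of TGF-beta responses, was at 4.57, 5.42 and 5.47 CPM in MT and 2.21, 2.10 and 1.79 CPM in WT (1.34 ± 0.13; edgeR adjusted p 0.0159). For both genes even the lowest MT library stood clear of the highest WT library, and MT replicate 1 was the lowest of the MT libraries. Nfatc2, a calcium-driven factor best known from T cells, was at 15.1, 12.0 and 13.03 CPM against 6.81, 7.13 and 7.13 CPM (log2 fold change 0.93 ± 0.09; edgeR adjusted p 0.0159). Trps1, a GATA-type repressor, rose by less, with a log2 fold change of 0.47 ± 0.05 (edgeR adjusted p 0.0182).

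Flt1 and Ccrl2 also rose. Flt1, a receptor for vascular endothelial growth factor that monocytes also carry, was at 9.39, 8.91 and 8.84 CPM in MT and 4.01, 4.52 and 4.91 CPM in WT (log2 fold change 1.01 ± 0.09 SE; edgeR adjusted p 0.0159). Ccrl2, an atypical receptor that presents the chemoattractant chemerin, was at 18.7, 19.5 and 18.3 CPM against 11.6, 9.47 and 9.54 CPM (0.88 ± 0.09; edgeR adjusted p 0.0159). In each case MT was close to 2-fold above WT, with no library out of place. The integrin chain gene Itga8 had a log2 fold change of 0.82, Amica1 (now Jaml, a leukocyte adhesion molecule) of 0.42 and St8sia4 (a polysialic acid transferase) of 0.42. Also among the leading genes were the snoRNA host genes Snhg1 (0.50) and Snhg5 (0.48), Trp53inp2 (0.40; an autophagy gene), Tmem159 (0.61; a lipid droplet protein) and 1700025G04Rik (0.63).

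Of the genes lower in MT that are named here, Eml1 had the lowest log2 fold change. Eml1, which encodes a microtubule-binding protein, was at 0.64, 0.81 and 0.73 CPM in MT and 1.76, 2.17 and 1.67 CPM in WT, a log2 fold change of -1.36 ± 0.19 (SE; edgeR adjusted p 0.0315). Camkk1, a kinase that activates calmodulin-dependent kinases, was at 8.69, 9.33 and 11.8 CPM in MT and 24.5, 19.4 and 19.98 CPM in WT (-1.10 ± 0.13; edgeR adjusted p 0.0230). Prok2, a small chemokine-like protein made by neutrophils, was at 4.18, 5.80 and 5.30 CPM against 11.97, 9.999 and 10.06 CPM (-1.07 ± 0.13; edgeR adjusted p 0.0223). For these 3 genes every MT library lay below every WT library, and MT replicate 1 was the lowest.

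Ccr3, the eotaxin receptor of eosinophils, was at 23.3, 22.2 and 20.2 CPM in MT and 37.8, 33.0 and 33.8 CPM in WT (log2 fold change -0.67 ± 0.07 SE; edgeR adjusted p 0.0164). Irg1 (now Acod1), which makes the antimicrobial metabolite itaconate, was at 10.4, 11.5 and 11.6 CPM against 20.04, 17.9 and 17.7 CPM (-0.74 ± 0.08; edgeR adjusted p 0.0159). Ifitm1, an interferon-inducible membrane protein gene, was at 78.3, 96.1 and 95.3 CPM against 133, 136 and 134 CPM (-0.58 ± 0.08; edgeR adjusted p 0.0279). Ccr3 is itself 1 of 13 listed markers of eosinophils, basophils and mast cells, a list chosen with earlier results of these data known. Of the 13, 6 had all MT libraries below all WT libraries, Ccr3 included (11.7% of all genes did), and 0 the reverse. In bulk samples fewer cells of a type and less RNA per cell cannot be told apart. Other genes among the leading 15 were the semaphorin gene Sema6b (log2 fold change -0.76), the sodium-potassium-chloride cotransporter gene Slc12a2 (-0.66), the export pump gene Abcc3 (-0.57), the forkhead gene Foxd4 (-0.60) and Gm5483 (-0.61). Rps4y2 (-1.18; now Rps4l, annotated as a transcribed pseudogene), Gm10052 (-0.77; a processed pseudogene) and Rpl35 (-0.65) share sequence with other gene copies, so their counts are uncertain.

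**Figure D1:**
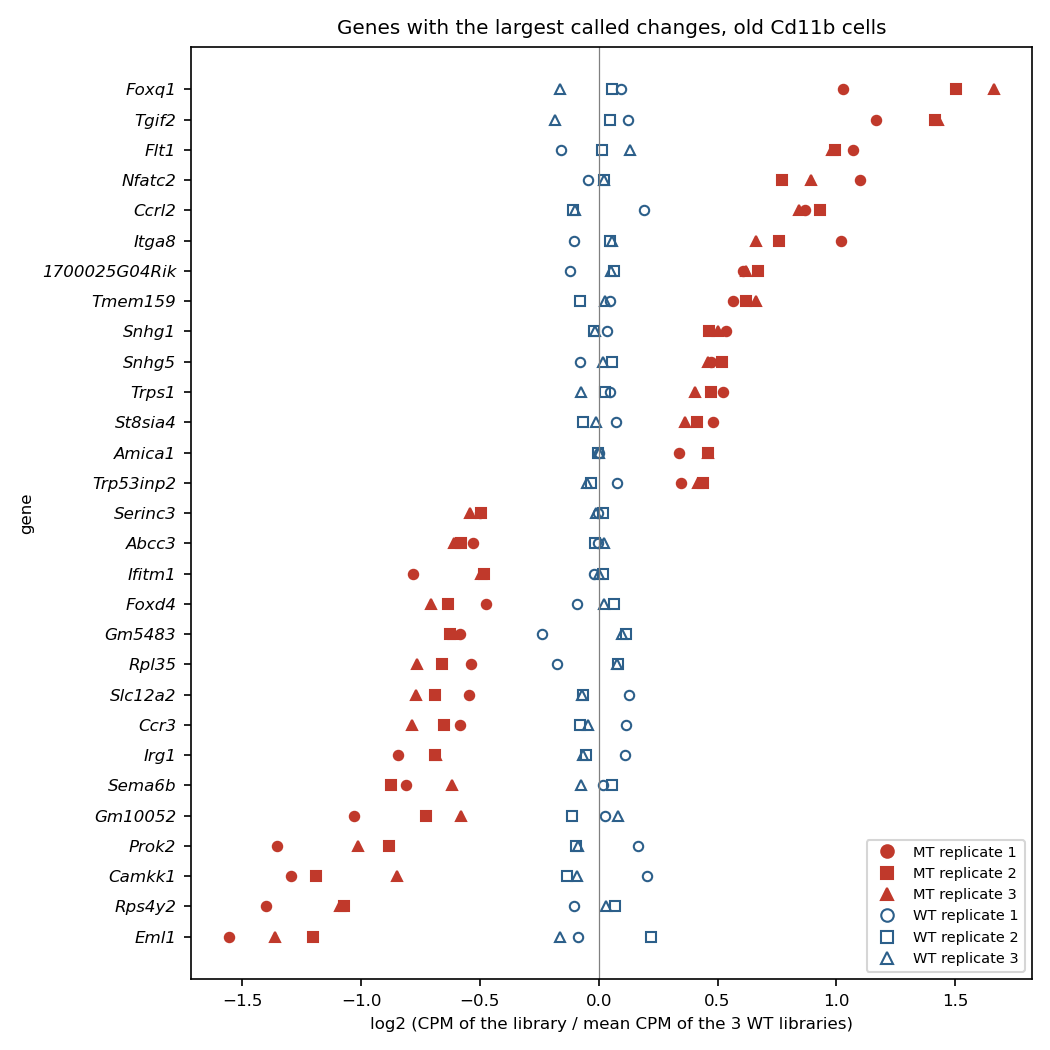
Level of 29 called genes, named by size of change, in every old Cd11b library, as the log2 ratio of its CPM to the mean CPM of the 3 WT libraries (horizontal axis); filled red symbols are MT, open blue symbols WT, and the symbol shape gives the replicate number. For these 29 genes the red symbols lie wholly to the right (14 genes higher in MT, from Foxq1 at 1.42 to Trp53inp2 at 0.40) or wholly to the left (15 genes lower, from Eml1 at -1.36 to Serinc3 at -0.51) of the blue ones.

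Chromosome 2, which carries Asxl1, held 11 of the 45 called genes. That was 11 of its 1010 tested genes (1.09%), against 34 of 12057 located genes elsewhere (0.282%). Of these 11 genes, 5 lay within 5 Mb of the start of Asxl1, where 110 genes were tested (4.55% called), and 2 more at 10 to 20 Mb, where 100 were tested (2%). The share of genes with no overlap between groups was 26.2% on chromosome 2 and 22.7% elsewhere. Near Asxl1 some genes were higher and others lower, so the median log2 fold change within 5 Mb was -0.004.

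Serinc3 (mm10 chr2:163623272-163645131, minus strand), a membrane protein gene known as a restriction factor of retroviruses, had the smallest adjusted p of the leading genes. Its level was 564, 565 and 547 CPM in MT and 795, 806 and 790 CPM in WT, a log2 fold change of -0.51 ± 0.04 (SE; edgeR adjusted p 0.00476). The libraries of a group were close together and the groups far apart. Lbp (chr2:158306493-158332852), the lipopolysaccharide-binding protein gene, was at 109, 115 and 113 CPM against 154, 146 and 147 CPM (-0.41 ± 0.04; edgeR adjusted p 0.0159). Tgif2 (chr2:156840007-156855570) and Nfatc2 (chr2:168476410-168601657), described above, lie on the same side of Asxl1. Also higher were Trp53inp2 (chr2:155381059-155389850; 270, 288 and 284 CPM against 224, 208 and 206) and Phf20 (chr2:156196466-156309952; 32.1, 32.6 and 33.4 CPM against 27.1, 24.9 and 25.8), a reader of histone methylation.

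**Figure D2:**
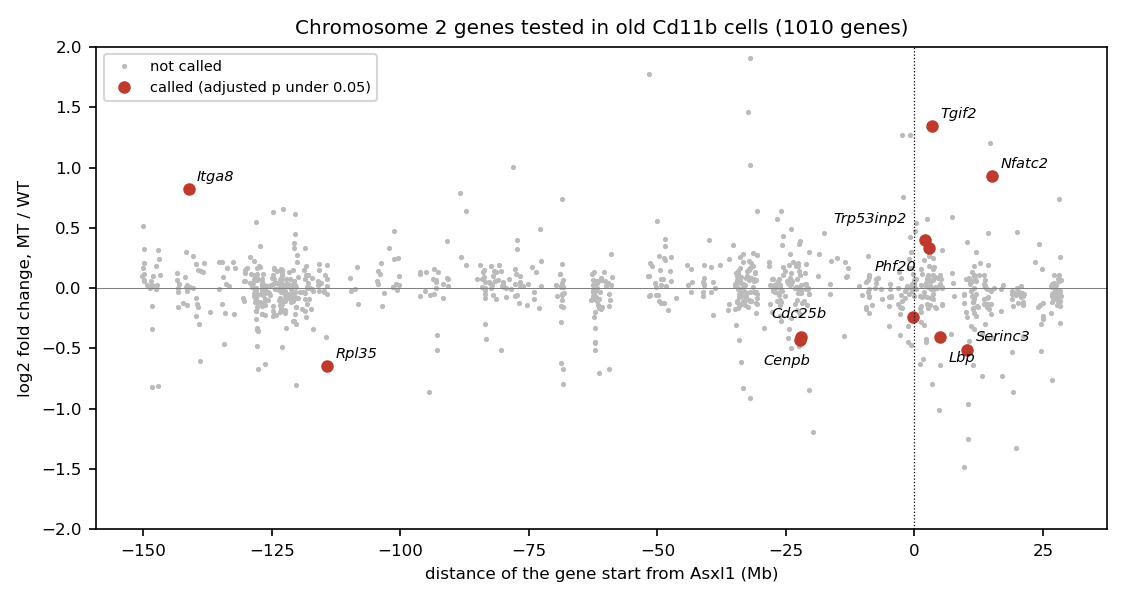
Log2 fold change of MT over WT in old Cd11b cells (vertical axis) for the 1010 tested genes of chromosome 2, against the distance of the gene start from the start of Asxl1 in Mb (horizontal axis); red points are called genes. Of the 11 red points, 7 lie within 20 Mb of Asxl1 and they fall on both sides of 0, from Tgif2 at 1.34 to Serinc3 at -0.51.

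The called genes near Asxl1 had the same sign in young cells. The young libraries are other samples and share none with the old ones. All 7 called genes within 20 Mb of Asxl1 had the same direction in young MT against young WT cells, and 6 of them had an unadjusted p under 0.05 there. Of the 38 called genes elsewhere, 15 had the same direction in young cells, 4 of them at an unadjusted p under 0.05, and 3 had the opposite direction at that level. Over all 12956 genes tested in both, 50.8% had the same direction. The edgeR adjusted p in young cells was at least 0.626 for every one of the 45 genes, so none was called there. Young log2 fold changes were 0.80 for Tgif2, 0.44 for Nfatc2, 0.40 for Trp53inp2, 0.28 for Phf20, -0.34 for Lbp and -0.46 for Serinc3. Foxq1 (1.19) and Rps4y2 (-1.05), which are not on chromosome 2, also had young values close to the old ones.

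In LK progenitors of the same age, with the 6 libraries taken as separate samples, 13.9% of 14113 genes tested were called higher and 15.9% lower in MT. Their replicates 2 and 3 were also alike, with a chi-square statistic per degree of freedom of 4.69 in MT and 2.97 in WT against 19.3 to 26.8 for the pairs with replicate 1. With LK replicates 2 and 3 summed, an alternative added after the data were seen, edgeR called 0 of 14512 genes higher (0%) and 3 lower (0.0207%), namely Serinc3, Tjp1 and Gm15421 (2914 at an unadjusted p under 0.05). With separate samples, 39 of the 45 genes were tested in LK cells, 22 had the same direction, 7 of them were called in the same direction and 3 in the opposite one, while 44.4% of all genes tested in both sets had the same direction. Of the 7 called genes within 20 Mb of Asxl1, 5 had the same direction in LK cells, 2 of them called there. Of the 32 elsewhere that were tested, 17 had the same direction, 5 of them called. Lbp, near Asxl1, was at 0.08 in LK cells (edgeR adjusted p 0.530). Serinc3 was again lower in LK cells, with a log2 fold change of -0.99 (edgeR adjusted p 0.000194), or -0.97 with replicates 2 and 3 summed (edgeR adjusted p 0.0320). Tnf, at 90.3, 95.3 and 95.4 CPM in old Cd11b MT against 77.6, 74.7 and 76.4 CPM in WT (0.30 ± 0.04 SE; edgeR adjusted p 0.0315), was at 0.35 in LK cells (edgeR adjusted p 0.0336, and 0.297 with replicates 2 and 3 summed) and at -0.21 in young Cd11b cells. Whether LK and Cd11b libraries came from the same animals is not stated.

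**Figure D3:**
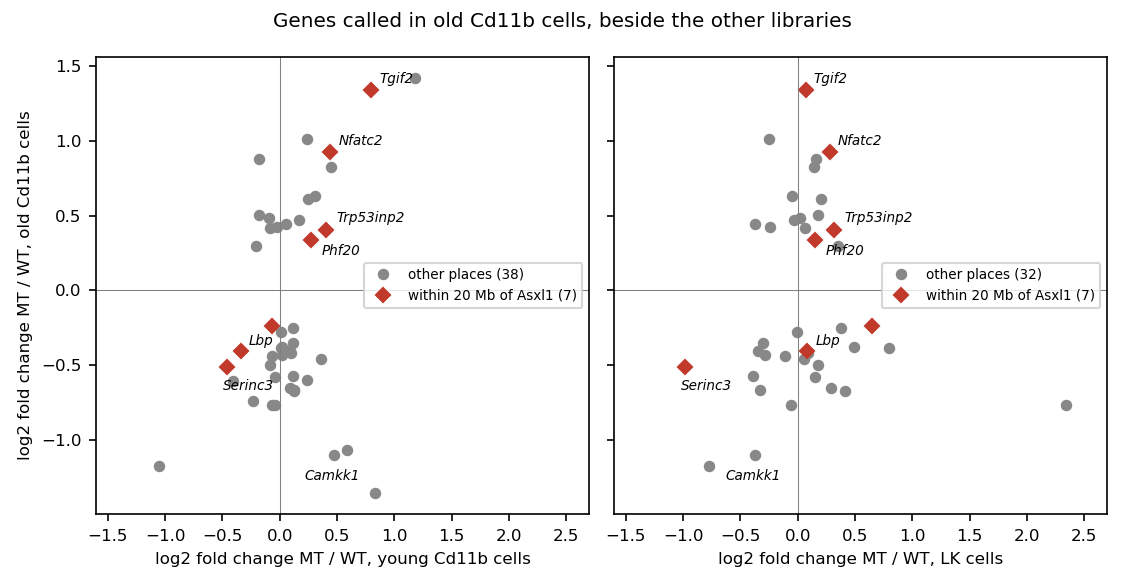
Log2 fold change of MT over WT for the called genes in old Cd11b cells (vertical axis) against the same contrast in young Cd11b cells (left, 45 genes) and in LK cells (right, 39 genes); red diamonds are the 7 genes within 20 Mb of Asxl1 and grey points the others. In the left panel all red diamonds lie in the quadrants of equal sign, while Camkk1 lies at 0.47 in young and -1.10 in old cells.

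A test of the difference between ages found 3 genes. Young and old libraries differed in make-up: the gene with the most counts was Rn45s in every young library and S100a9 in every old one. Young libraries had 3370285 to 4438906 TE counts beside 26251822 to 38347903 gene counts, old ones 1400436 to 2305226 beside 41909460 to 68260809. Age and this make-up cannot be told apart. In the interaction of genotype with age over the 13 Cd11b libraries, 0 of 14024 genes had a mutant effect called more positive in old cells (0%) and 3 had one called more negative (0.0214%), namely Camkk1, Fam20c and Tmem51, with 1035 genes at an unadjusted p under 0.05. DESeq2 called 65. With old replicates 2 and 3 summed Camkk1 was still called, and Fam20c and Tmem51 had an edgeR adjusted p of 0.119 and 0.138. For TE subfamilies edgeR called 0 of 971, with 25 at an unadjusted p under 0.05. The gene with the smallest p in the other direction was Btg2, an antiproliferative immediate early gene, with an interaction of 0.91 ± 0.17 on the log2 scale (edgeR adjusted p 0.148).

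Immediate early genes, which are induced within minutes of a stimulus and encode AP-1 and Egr factors and their brakes, were mostly above WT levels in old MT cells, and none was called. Of 26 tested, 24 had a log2 fold change above 0, with a median of 0.28 against 0.003 over all genes, 11 had all MT libraries above all WT libraries (11.2% of all genes did) and 0 the reverse. Without WT replicate 1 the list's median was 0.43. Fosb was at 75.3, 93.7 and 95.4 CPM in MT and 48.8, 35.0 and 34.0 CPM in WT (log2 fold change 1.16; edgeR adjusted p 0.0527). Fos was at 1271, 1567 and 1589 CPM against 1111, 877 and 872 CPM (0.63; edgeR adjusted p 0.0793), and Btg2 at 429, 533 and 520 CPM against 377, 319 and 323 CPM (0.54; edgeR adjusted p 0.0659). In all 3 genes replicate 1 of each group stood between the other libraries, and WT replicate 1 was the WT library closest to MT. Over the whole list the library medians, as log2 distance from each gene's mean, were 0.07, 0.19 and 0.22 in MT and 0.08, -0.29 and -0.29 in WT, so that WT replicate 1 lay among the MT libraries. The list's median was -0.26 in young Cd11b cells and 0.41 in LK cells.

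Heat shock and chaperone genes, whose products refold proteins, were mostly above WT levels in MT. Of 19 tested, 17 had a log2 fold change above 0 (median 0.24), 12 had all MT libraries above all WT libraries (11.2% of all genes did) and 0 were called. The library medians were -0.04, 0.18 and 0.19 in MT and -0.12, -0.14 and -0.12 in WT, so that the WT libraries lay together and MT replicate 1 was the MT library closest to them. Hspa8, the constitutive HSC70 gene, was at 816, 1057 and 1117 CPM in MT and 643, 662 and 673 CPM in WT (log2 fold change 0.60; edgeR adjusted p 0.0696). Hspa5, the chaperone of the endoplasmic reticulum, was at 640, 768 and 764 CPM against 572, 576 and 581 CPM (0.33; edgeR adjusted p 0.0800). The widest range was that of the inducible Hspa1a, chosen here after its values were seen, at 21.8, 135 and 134 CPM in MT and 17.0, 1.79 and 1.76 CPM in WT. Replicates 2 and 3 of the groups were thus far apart while replicate 1 of MT and replicate 1 of WT were close (log2 fold change 3.80; edgeR adjusted p 0.277). Hspa1b, a near-identical copy whose reads can be shared with it, was at 24.8, 171 and 170 CPM against 24.4, 3.36 and 3.49 CPM. In young cells the log2 fold change of Hspa1a was -1.23, and in LK cells it was 4.71 (edgeR adjusted p 0.103).

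Inflammatory genes had 2 called members, Tnf and Ccrl2, both higher in MT, of 40 tested, where 0.127% of all genes were called higher. The list's median log2 fold change was 0.12, and 12 members had all MT libraries above all WT libraries and 4 the reverse, against 11.2% and 11.7% of all genes. Ccl5, a chemokine also made by T and NK cells, was at 2.51, 2.37 and 1.99 CPM in MT and 1.34, 1.26 and 1.42 CPM in WT (0.77; edgeR adjusted p 0.0736). Il1r2, a decoy receptor for interleukin 1, was at 74.8, 82.0 and 84.1 CPM against 101, 99.4 and 96.6 CPM (-0.30; edgeR adjusted p 0.0588). The neutrophil chemokine gene Cxcl2 was at 153, 134 and 131 CPM against 130, 104 and 100 CPM (0.32; edgeR adjusted p 0.209), and the library medians of the list again placed WT replicate 1 (0.07) with the MT libraries (0.01, 0.08 and 0.08) and apart from WT replicates 2 and 3 (-0.09 and -0.08). Interferon-response genes did not share a direction: 19 of 35 were above 0, the median was 0.00 and none was called.

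The DNA just before the start of 4 of these genes is shown for the letters it holds. The stretches were read from RefSeq promoters of build GRCm38.p6 (the mm10 assembly), 250 bases before to 50 after each start, searched on both strands; only bases before the start are printed, 5′ to 3′ on the gene's strand, with the matched letters in capitals. Flt1 (chr5:147726044-147726133, minus strand), called higher, and Btg2 (chr1:134079273-134079362, minus strand) hold the cAMP response element (CRE) letters TGACGTCA; Prok2 (chr6:99726412-99726501, minus strand), called lower, holds the AP-1 letters TGANTCA; Cxcl2 (chr5:90903781-90903870, plus strand) holds the kappa-B letters GGGNNNTTCC, first on both strands with an overlap and again nearer the start.
Flt1: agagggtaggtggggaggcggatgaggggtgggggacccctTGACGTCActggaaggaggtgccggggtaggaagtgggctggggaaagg
Btg2: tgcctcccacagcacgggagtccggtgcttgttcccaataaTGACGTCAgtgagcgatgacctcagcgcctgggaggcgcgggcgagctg
Prok2: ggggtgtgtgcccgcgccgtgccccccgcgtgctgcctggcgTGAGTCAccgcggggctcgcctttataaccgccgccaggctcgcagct
Cxcl2: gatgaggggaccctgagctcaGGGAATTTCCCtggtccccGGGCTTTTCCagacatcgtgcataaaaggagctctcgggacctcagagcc

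A match is a description of the letters and not a binding site. The CRE letters were in the promoters of 2.03% of 27025 genes of the table, and in 2 of the 13 genes called higher that the table holds (Flt1 and Trp53inp2), 0 of the 21 called lower and 3 of 22 immediate early genes (Btg2, Dusp1 and Maff). The AP-1 letters were in 8.97% of all genes, in 0 of the 13 called higher and in 4 of the 21 called lower (Ccr3, Eml1, Prok2 and Sema6b). The kappa-B letters were in 6.31% of all genes, in 12 of 30 inflammatory genes, Cxcl2 among them, and in 1 gene of each called set. The heat shock element was found in 0.662% of all genes and in 3 of 15 heat shock genes (Hspd1, Hspe1 and Hsph1).

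Markers of other blood cells also differed between libraries. T and NK cell genes had a median log2 fold change of 0.74 over 20 tested (0.51 without MT replicate 1), with library medians of 0.32, 0.29 and 0.12 in MT and -0.27, -0.21 and -0.34 in WT. Of these genes 7 were above WT in all MT libraries (11.2% of all genes were), at levels near 1 CPM: Lck, a kinase of the T cell receptor, was at 1.5, 1.59 and 1.52 CPM in MT and 0.80, 0.75 and 0.56 CPM in WT (edgeR adjusted p 0.0588). Their summed level was 46.6 to 52.7 CPM in MT and 39.7 to 49.97 CPM in WT. The B cell list, with a median of 0.90 over 15 genes (-0.08 without MT replicate 1), was led by MT replicate 1, as for the B lineage factor Pax5, at 3.26, 1.03 and 1.13 CPM in MT and 0.68, 0.97 and 0.59 CPM in WT. Its summed level was 637 to 748 CPM in MT and 226 to 1415 CPM in WT. The erythroid list, with a median of 1.32 over 17 genes, was instead led by MT replicates 2 and 3: Klf1, the master factor of red cells, was at 0.67, 3.50 and 3.42 CPM in MT and 0.61, 0.31 and 0.55 CPM in WT. The summed level of the erythroid list overlapped, at 101 to 242 CPM in MT and 109 to 173 CPM in WT. In that list 2 members lay above WT in all MT libraries, against 11.2% of all genes. None of these 3 lists had a called gene. Whether such cells had a part in the changes above, Ccl5 and Nfatc2 included, was not tested.

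Eosinophil, basophil and mast cell genes had a median of -0.39 over 13 genes. The 1 called member was Ccr3, where 0.209% of all genes were called lower. Il5ra, the interleukin 5 receptor of eosinophils, was at 2.81, 3.02 and 2.69 CPM in MT and 5.82, 3.21 and 3.55 CPM in WT, with WT replicate 1 apart. Their summed level was 609 to 665 CPM in MT and 735 to 751 CPM in WT, with no overlap. The list's median was -0.18 without WT replicate 1, -0.07 without MT replicate 1 and -0.64 with replicates 2 and 3 summed. The part of these cells in the lower level of Ccr3 was not tested. MHC class II and dendritic cell genes had a median of 0.27 over 15 (0.14 without MT replicate 1), with 9 members above WT in all MT libraries, against 11.2% of all genes. Their library medians were 0.29, 0.03 and 0.03 in MT, with replicate 1 apart, and -0.24, -0.10 and -0.11 in WT. Ciita, the class II transactivator, was at 28.0, 21.0 and 23.4 CPM in MT and 16.7, 15.6 and 16.5 CPM in WT (0.57; edgeR adjusted p 0.0620).

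Within the myeloid lineage the macrophage markers were mostly below WT levels in MT, and none was called. Of 26 monocyte and macrophage genes, 20 had a log2 fold change below 0, the median was -0.25, and 13 had all MT libraries below all WT libraries against 1 above (11.7% and 11.2% of all genes). Their summed level overlapped, at 4540 to 5087 CPM in MT and 4641 to 4807 CPM in WT. The library medians were -0.0004, -0.16 and -0.14 in MT and 0.02, 0.17 and 0.10 in WT. Replicate 1 was thus nearly level between the groups. The list's median was 0.10 in young Cd11b cells and -0.01 in LK cells. Hmox1, the heme oxygenase of macrophages that clear red cells, was at 132, 134 and 136 CPM in MT and 152, 198 and 195 CPM in WT (-0.44; edgeR adjusted p 0.0861). Siglec1, a sialic acid receptor of marrow macrophages, was at 19.9, 16.6 and 18.3 CPM against 28.0, 24.3 and 22.2 CPM (-0.44; edgeR adjusted p 0.0943). Marrow monocyte genes such as Ly6c2 (-0.08) and Ccr2 (0.06) overlapped between the groups.

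Primary granule genes, which are made in neutrophil precursors, had a median of -0.20 over 11, with 5 below WT in all MT libraries (11.7% of all genes were) and 0 above. The median was -0.30 without WT replicate 1, -0.25 without MT replicate 1 and -0.13 with replicates 2 and 3 summed. Library medians were 0.02, -0.15 and -0.13 in MT and 0.01, 0.22 and 0.21 in WT. Replicate 1 was thus nearly level between the groups. Prtn3 (proteinase 3) was at 196, 157 and 165 CPM in MT and 229, 244 and 237 CPM in WT (-0.45; edgeR adjusted p 0.0608), and Mpo (myeloperoxidase) at 505, 433 and 450 CPM against 565, 608 and 608 CPM (-0.36; edgeR adjusted p 0.0620). The median was -0.24 in young Cd11b cells and 0.34 in LK cells. Genes of secondary granules and mature neutrophils had a median of -0.08 over 27, and the gelatinase gene Mmp9 was at 3857, 3985 and 4048 CPM against 4806, 4476 and 4460 CPM (-0.21; edgeR adjusted p 0.0786). Neutrophil trafficking genes had 1 called member of 18, Prok2, which was lower, where 0.209% of all genes were called lower.

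**Figure D4:**
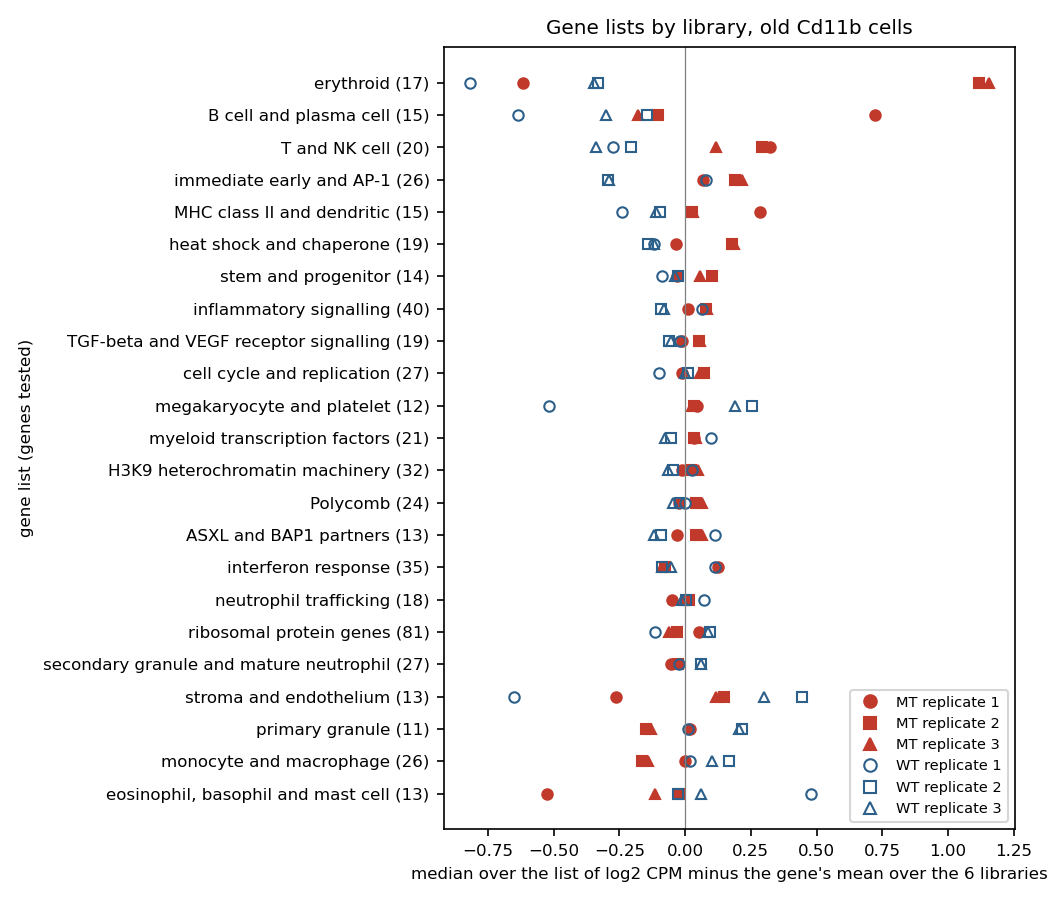
Median over each gene list of the log2 CPM of a library minus the gene's mean over the 6 old Cd11b libraries (horizontal axis), with the number of genes tested in brackets; filled red symbols are MT, open blue symbols WT, and shapes give the replicate number. Replicates 2 and 3 of a group lie close together in most lists, WT replicate 1 lies with MT for immediate early genes (0.08), and MT replicates 2 and 3 stand apart for erythroid genes (1.12 and 1.16).

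The chromatin genes that the study turns on were nearly level. None of 32 genes of the H3K9 heterochromatin machinery was called, and their median log2 fold change was 0.04. Ehmt1, an H3K9 methyltransferase, was at 37.5, 39.6 and 42.0 CPM in MT and 40.8, 37.8 and 36.9 CPM in WT (0.04; edgeR adjusted p 0.750), and its partner Ehmt2 at 82.3, 70.8 and 72.5 CPM against 81.0, 76.8 and 76.0 CPM (-0.05; edgeR adjusted p 0.723). Both overlapped between the groups. Sirt1, a deacetylase, was at 34.7, 38.1 and 37.4 CPM against 31.9, 32.6 and 31.7 CPM (0.19; edgeR adjusted p 0.135) and was 1 of 7 members above WT in all MT libraries (11.2% of all genes were), with 0 below. The 13 ASXL and BAP1 partner genes had a median of 0.04 and 0 members without overlap.

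Transposable element transcripts as a whole had nearly equal means in the groups. Per 1000 gene counts they were at 34.6, 34.5 and 34.4 in MT and 36.4, 33.4 and 33.8 in WT (means 34.5 ± 0.13 and 34.5 ± 1.65, SD, n = 3 each; two-sided exact permutation test p = 1). With 3 libraries against 3 the smallest p this test can give is 0.1. LTR elements, the remains of retroviruses, were at 11.1, 11.2 and 11.1 in MT and 11.9, 11.2 and 11.2 in WT, with all MT libraries below all WT libraries (exact permutation p = 0.1, adjusted over 5 shares 0.5). LINE, SINE and DNA transposon shares overlapped (exact permutation p = 0.5, 0.8 and 0.4).

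Of 873 TE subfamilies tested, 2 were higher in MT (0.229%) and 2 lower (0.229%). RMER17C-int, the internal part of an ERVK retrovirus-like element, was at 8.48, 6.91 and 7.498 CPM of gene counts in MT and 4.41, 4.81 and 4.81 CPM in WT, a log2 fold change of 0.71 ± 0.11 (SE; edgeR adjusted p 0.00709). L1MEi, an old LINE subfamily, was at 1.88, 1.61 and 1.84 CPM against 1.05, 0.43 and 0.83 CPM (1.16 ± 0.22; edgeR adjusted p 0.0239). In both, the lowest MT library lay above the highest WT library. Lower in MT were ORR1A0-int, a MaLR element, at 57.6, 61.5 and 61.5 CPM against 80.5, 80.1 and 79.4 CPM (-0.41 ± 0.06; edgeR adjusted p 0.00709), and IAPEY4_LTR, an ERVK element, at 0.88, 0.86 and 0.68 CPM against 2.21, 1.33 and 1.45 CPM (-1.04 ± 0.21; edgeR adjusted p 0.0345). With replicates 2 and 3 summed, 3 of the 4 were still called, ORR1A0-int being the exception (edgeR adjusted p 0.0731). Leaving out any 1 MT library ended all 4 calls (98, 57 and 48 subfamilies at an unadjusted p under 0.05), while leaving out WT replicate 1 gave 134 calls. With factors taken from the TE counts 4 subfamilies were called higher and 2 lower. In LK cells the log2 fold change of ORR1A0-int was 0.20 (edgeR adjusted p 0.0386 with the libraries taken as separate samples).

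Most LTR subfamilies had log2 fold changes a little below 0. Of 873 subfamilies, 4.24% had all MT libraries above all WT libraries and 13.2% all below. Among the 528 LTR subfamilies 95 lay below and 20 above, with a median log2 fold change of -0.07. The ERV1 superfamily had 25 of 91 below and 1 above (median -0.11), ERVK 43 of 261 below and 14 above (-0.07) and ERVL-MaLR 18 of 85 below and 1 above (-0.07). These medians stayed below 0 without WT replicate 1 (-0.10, -0.04 and -0.03) and with factors from the TE counts (-0.08, -0.03 and -0.04). LINE subfamilies had 15 of 143 below and 5 above (median -0.01), and DNA transposons had 4 of 155 below and 10 above (0.07).

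**Figure D5:**
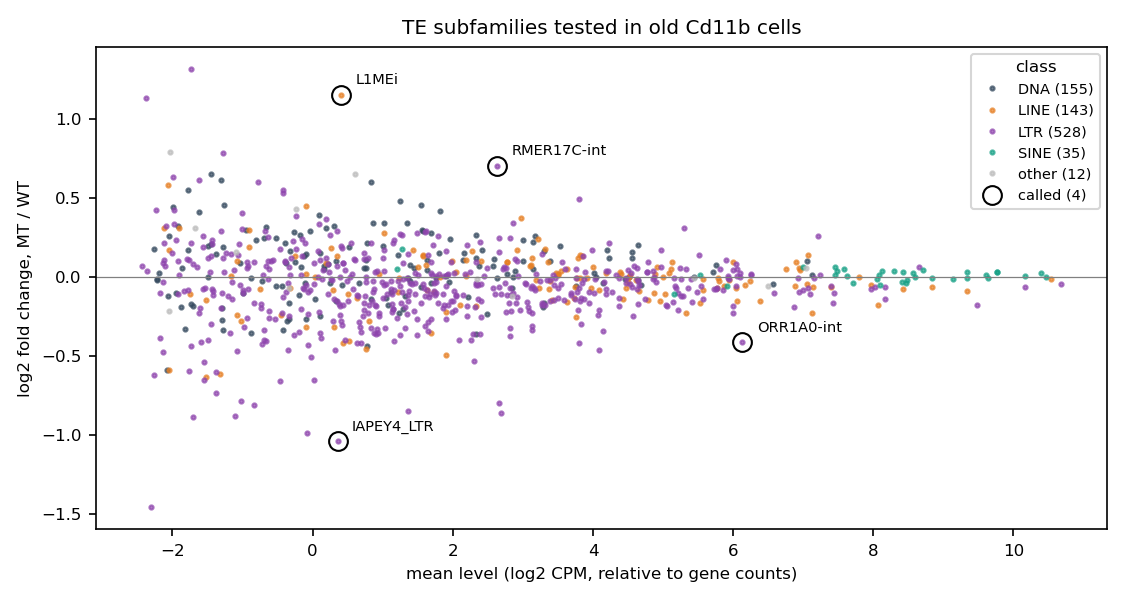
Log2 fold change of MT over WT (vertical axis) against the mean level as log2 CPM of gene counts (horizontal axis) for the 873 TE subfamilies tested in old Cd11b cells, coloured by class; black rings mark the 4 called ones. Most LTR points lie just below 0 (median -0.07), while L1MEi (1.16), RMER17C-int (0.71), ORR1A0-int (-0.41) and IAPEY4_LTR (-1.04) stand away from their neighbours.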

How the data were processed

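For each library the deposited values are raw counts of the authors, whole numbers given by gene symbol in one table and by TE subfamily in another; STAR, HTSeq, DESeq2 and mm10 are named, without roles, per the submitters' processing notes, and libraries were made with a directional kit per the labels' protocols. How multiply mapped reads and strand were handled is not given in the sources used here. Counts were tested with edgeR 4.0.16 (quasi-likelihood, filterByExpr, TMM factors, robust; R 4.3.3), with TE counts scaled by the gene counts of the library; the groups were taken from the labels. The procedure was tested on simulated data. TE shares were compared by exact permutation (scipy 1.17.1). Positions are from GENCODE (mm10), found for 97.5% of tested genes.

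Named are Asxl1, Itgam, up to 15 called genes and 5 called subfamilies per direction with the largest change and a mean of 50 counts, up to 4 members per list with the smallest p, up to 3 genes per direction in the interaction, and genes called with replicates 2 and 3 summed. A few other list members are named for their function, chosen with their values seen. Results of a few genes that this rule names are not reported here. The comparison and the lists were chosen with earlier results of these data known. The motif letters for CRE and heat shock were added after the data were seen, and those of the serum response element were also not in the first plan. Alternatives were DESeq2 1.42.0, RLE factors, testing without the low-count filter, all 13 Cd11b libraries, glmTreat at 0.2, a replicate block, summed replicates 2 and 3, and each replicate left out.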

Additional observations from a re-analysis of the deposited data

Results flagged for a closer look

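In 3 genes the mutant effect at 18 months differed from that at 4 months by the test of the interaction. For Camkk1 the difference of log2 fold changes was -1.57 ± 0.19 (SE; edgeR adjusted p 0.0126). The young libraries were at 10.2, 13.2 and 14.7 CPM in MT and 9.51, 8.54, 8.87 and 9.67 CPM in WT. Old WT cells, at 19.4 to 24.5 CPM, had the highest values. Young and old CPM were scaled in separate fits, and age cannot be told apart from the make-up of the libraries. Fam20c, which encodes a kinase of secreted proteins, had a difference of -1.07 ± 0.15 (edgeR adjusted p 0.0239). It was at 6.25, 6.59 and 6.94 CPM in old MT, 9.97, 9.85 and 8.52 CPM in old WT, 12.7, 13.2 and 12.1 CPM in young MT and 9.77, 8.99, 8.52 and 7.22 CPM in young WT. Old MT lay below old WT while young MT lay above young WT. Tmem51 had a difference of -0.84 ± 0.12 (edgeR adjusted p 0.0239). Its levels were 12.8, 11.6 and 12.9 CPM in old MT, 17.6, 15.9 and 15.7 CPM in old WT, 11.7, 12.6 and 11.2 CPM in young MT and 8.30, 9.55, 8.79 and 8.06 CPM in young WT. Within old cells alone Fam20c (edgeR adjusted p 0.0605) and Tmem51 (0.0650) were not called.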

How the results depend on the processing

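All 45 called genes kept their direction in all 13 alternatives. These fits reuse the libraries that gave the calls, and all 45 had no overlap between the groups. Their direction could thus hardly change, and keeping it is not separate support. The number called was 521 with DESeq2, 15 with all 13 Cd11b libraries in the fit, 8 with glmTreat against a log2 fold change of 0.2, 1 with replicates 2 and 3 summed, and 0 to 1819 with 1 library left out. With the replicate block edgeR called 0 genes (1656 at an unadjusted p under 0.05). Deviations of same-numbered libraries correlated at 0.035, 0.026 and -0.014. Replicate 1 of MT and replicate 1 of WT correlated best with each other. Replicates 2 and 3 correlated best with a replicate 2 or 3 of the other group, not always of their own number. Whether the groups share a replicate structure was not tested. For TE subfamilies the count was 2 with all 13 Cd11b libraries, 4 with the replicate block, 6 with DESeq2 and 0 to 134 with 1 library left out. The interaction with age gave 65 genes with DESeq2, 28 with the block and 0 to 9 with 1 old library left out. The cause of these shifts was not tested, beyond the fewer samples that some of these fits hold. The TE share changed sign within its error: -0.05 per 1000 gene counts over all libraries, and over fits without 1 library it ran from -0.61 to 0.90 (0.03 without MT replicate 3 and 0.90 without WT replicate 1). The SINE difference of 0.30 became -0.051 with replicates 2 and 3 averaged and ran from -0.13 without WT replicate 2 to 1.02 without WT replicate 1. With 3 libraries a group, small changes are not detectable, and TE subfamilies under 1 CPM rest on fewer than 100 counts per library.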

Other observations

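With replicates 2 and 3 summed, edgeR called 1 gene, the gene model Gm14045. It had too few counts in most libraries to pass the low-count filter of the main fit. Its counts were 7, 5 and 4 in MT and 246, 3 and 317 in WT (log2 fold change -5.20; edgeR adjusted p 0.0279), so it was present in WT replicates 1 and 3 and nearly absent from WT replicate 2. WT replicates 2 and 3, which were otherwise the most alike, thus differed widely in it. Among genes with 100 or more counts in either library, 16 of 10706 differed by over 8-fold between WT replicates 2 and 3 and 8 of 10541 between MT replicates 2 and 3, against 13 to 16 in the pairs with replicate 1. Of these, 9 of 16 and 6 of 8 carry Gm numbers, the names of predicted gene models. Gm15501, for example, had 19, 1091 and 11 counts in MT and 1138, 1758 and 25 counts in WT.

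Of 81 ribosomal protein genes 18 had a log2 fold change above 0 (median -0.04, and 0.02 with replicates 2 and 3 summed). Among them 2 were called lower, Rps4y2 and Rpl35, where 0.209% of all genes were. Rps4y2, annotated as a pseudogene, was put in the list by name. Of 27 cell cycle and replication genes 7 lay above and 4 below WT in all MT libraries, against 11.2% and 11.7% of all genes (median 0.08, and 0.02 without WT replicate 1), with Pcna at 0.20 and E2f1 at -0.28 (edgeR adjusted p 0.1003 and 0.0700). Polycomb genes (median 0.04 over 24), stem and progenitor genes (0.12 over 14), megakaryocyte and platelet genes (0.05 over 12, and -0.17 without WT replicate 1), stroma and endothelium (-0.08 over 13, and -0.35 without WT replicate 1 and 0.02 with replicates 2 and 3 summed) and TGF-beta and VEGF receptor genes (0.08 over 19, with Flt1 and Tgif2 called higher) had 0 other called members. Of 21 myeloid transcription factors 2 were called, Tgif2 and Nfatc2 (median 0.05), where 0.127% of all genes were called higher. Tgif2 is in this list and in the TGF-beta and VEGF one. The lists were chosen with earlier results known, so these called members are not a separate result about the lists. Longer transcripts had slightly higher log2 fold changes: with genes in 4 equal bins of exonic length, the median was -0.05 in the shortest bin and 0.04 in the longest (Spearman's rho 0.19 across 13067 genes, which are not independent replicates).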
